A study of Homo sapiens with 4 samples.

Results

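The DNAJ genes encode the J-domain proteins, also called Hsp40 proteins, which are the co-chaperones of Hsp70. Members were taken as the genes whose symbol begins with DNAJA, DNAJB or DNAJC followed by a number and that had at least 1 m6A peak in either condition, which gave 28 of 8220 genes with a peak: 3 of class A, 8 of class B and 17 of class C. The files describe 27 of them as DnaJ heat shock protein family members, and the remaining symbol, DNAJC25-GNG10, as a readthrough. They carried 38 of 14367 control peaks and 46 of 15472 heat peaks. The RefSeq gene table of GRCh38.p14 holds 45 coding symbols of this form, and 17 of these had no row in either list: DNAJA2 in class A, DNAJB2, DNAJB7, DNAJB8 and DNAJB14 in class B, and DNAJC4, DNAJC5B, DNAJC5G, DNAJC6, DNAJC12, DNAJC13, DNAJC17, DNAJC18, DNAJC19, DNAJC24, DNAJC27 and DNAJC28 in class C.

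The cells were CaSki, a line derived from a squamous carcinoma of the uterine cervix that carries integrated human papillomavirus. Control cells stayed at 37 °C, and heat-treated cells spent 60 min at 42 °C before RNA was taken. N6-methyladenosine (m6A), a base modification of mRNA, was mapped by MeRIP-seq, in which RNA bound by an m6A antibody is sequenced beside an input that was not enriched. Each of the 2 conditions had 1 immunoprecipitated and 1 input library, so that no difference below has a replicate check, and total reads per library are unknown. The label of epithelial cells was set against marker genes, of which 8 of 10 epithelial ones had a peak (CDH1, KRT8, TP63, SFN and ELF3 in both lists, EPCAM, KRT5 and KRT17 in heat only, KRT18 and KRT19 in neither), against 0 of 6 immune, 0 of 5 fibroblast and 1 of 4 endothelial markers (CDH5, 2 control peaks). A peak reflects RNA that is both present and enriched, and levels in the input were not analysed here, so that more RNA and more methylation cannot be told apart in any value below.

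J-domain proteins bring unfolded substrates to Hsp70 and trigger its ATP hydrolysis through a conserved histidine-proline-aspartate motif. Class A proteins carry the J domain at the N terminus, a region rich in glycine and phenylalanine, and a zinc-binding region. Class B proteins lack the zinc-binding region, and class C proteins share only the J domain and otherwise differ widely in structure and location. Some cytosolic members, DNAJB1 above all, are known targets of the heat shock transcription factor HSF1, which binds inverted repeats of GAA called heat shock elements.

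Promoter windows of 6 members are shown, since heat shock elements are the best known sequence link between this family and heat, and since these genes include control-only, heat-only and shared members. Each window runs from 250 bases before to 50 bases after an annotated RNA start (RefSeq, GRCh38.p14, 5′ to 3′ along the gene), and capitals mark matches to GAANNTTC or TTCNNGAA, the element of 2 units. For DNAJA4 and DNAJB1, which have several annotated starts, the window with the most matches is given.
DNAJA1 (chr9:33025023-33025322, plus strand): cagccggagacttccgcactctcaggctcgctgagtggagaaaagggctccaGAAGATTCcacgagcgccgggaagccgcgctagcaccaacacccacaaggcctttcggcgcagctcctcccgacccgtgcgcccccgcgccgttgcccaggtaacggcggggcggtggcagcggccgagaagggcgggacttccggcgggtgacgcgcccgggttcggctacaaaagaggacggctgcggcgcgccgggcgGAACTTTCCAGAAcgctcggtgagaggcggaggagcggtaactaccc
DNAJA4 (chr15:78264312-78264611, plus strand): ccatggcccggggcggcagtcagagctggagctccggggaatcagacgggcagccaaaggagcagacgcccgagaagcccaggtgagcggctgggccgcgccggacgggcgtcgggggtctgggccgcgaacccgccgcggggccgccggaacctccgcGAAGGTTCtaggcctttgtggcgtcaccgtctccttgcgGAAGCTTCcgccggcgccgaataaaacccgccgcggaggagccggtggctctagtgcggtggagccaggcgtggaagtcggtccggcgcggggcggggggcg
DNAJB1 (chr19:14518348-14518647, minus strand): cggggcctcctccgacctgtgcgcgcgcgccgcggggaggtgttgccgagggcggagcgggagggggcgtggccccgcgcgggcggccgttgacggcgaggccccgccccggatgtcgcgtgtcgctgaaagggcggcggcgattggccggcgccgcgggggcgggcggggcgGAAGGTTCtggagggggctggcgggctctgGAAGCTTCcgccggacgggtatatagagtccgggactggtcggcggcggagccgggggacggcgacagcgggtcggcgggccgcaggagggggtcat
DNAJB6 (chr7:157336754-157337053, plus strand): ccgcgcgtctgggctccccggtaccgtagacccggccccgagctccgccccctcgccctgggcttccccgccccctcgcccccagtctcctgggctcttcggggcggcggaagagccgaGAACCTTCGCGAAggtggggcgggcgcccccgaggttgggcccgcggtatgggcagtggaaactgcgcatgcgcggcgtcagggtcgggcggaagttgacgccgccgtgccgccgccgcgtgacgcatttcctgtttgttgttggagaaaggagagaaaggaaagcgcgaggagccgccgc
DNAJC25 and DNAJC25-GNG10 (chr9:111631084-111631383, plus strand): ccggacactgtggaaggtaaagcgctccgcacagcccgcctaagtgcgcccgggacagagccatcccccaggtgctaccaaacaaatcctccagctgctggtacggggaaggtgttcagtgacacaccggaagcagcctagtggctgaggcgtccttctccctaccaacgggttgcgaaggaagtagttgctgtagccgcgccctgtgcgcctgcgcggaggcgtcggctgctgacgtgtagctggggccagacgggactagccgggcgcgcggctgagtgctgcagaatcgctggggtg
The last window is the same for both symbols, which share an annotated start.

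RefSeq windows were found for 26 of the 28 members. The 2-unit element was present in at least 1 window of 6 of them (23.1%), against 16.2% of all 27305 genes with a window. DNAJA1, DNAJA4, DNAJB1, DNAJB4, DNAJB6 and DNAJC15 held it. The 3-unit form, which is GAANNTTC with NNGAA after it, or TTCNNGAA with NNTTC after it, and so contains the 2-unit form, was present in DNAJA1 and DNAJB6, 7.69% of the matched members, against 0.608% of all genes. In the printed window of DNAJB1, matches began 77 and 47 bases before the start. Another DNAJB1 window, not printed, held a match that began 1 base after its start. In DNAJA4 matches began 91 and 52 bases before the start, and in DNAJB6 the 3-unit match began 131 bases before it. In DNAJA1 the 3-unit match began 3 bases after the start. Genes with an element fell in each list class of the peak data: DNAJA1 was listed in control only, DNAJA4 and DNAJC15 in heat only, and DNAJB1, DNAJB4 and DNAJB6 in both. A match is a string of letters in a window and not a measured binding site.

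Most DNAJ genes carried peaks in both conditions. Of the 28 members, 20 were listed in both and are called shared here (71.4%, exact 95% interval 51.3 to 86.8%), beside 73.4% of all genes with a peak. Only in the control list were 3 members, DNAJA1, DNAJB11 and DNAJC3 (10.7%, 2.27 to 28.2%), beside 13.5% of all genes. Only in the heat list were 5, DNAJA4, DNAJB13, DNAJC7, DNAJC15 and DNAJC25-GNG10 (17.9%, 6.06 to 36.9%), beside 13.2% of all genes. All 3 intervals, which cover the counting of genes only, include the share over all genes. By these counts the family was not set apart from other genes.

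The classes were compared by the same counts. Class A held 1 shared gene (DNAJA3), 1 control-only gene (DNAJA1) and 1 heat-only gene (DNAJA4). Class B held 6 shared genes, 1 control-only gene (DNAJB11) and 1 heat-only gene (DNAJB13). Class C held 13 shared genes, 1 control-only gene (DNAJC3) and 3 heat-only genes (DNAJC7, DNAJC15 and DNAJC25-GNG10). The shared part was 33.3% of class A (exact interval 0.840 to 90.6%), 75% of class B (34.9 to 96.8%) and 76.5% of class C (50.1 to 93.2%), and these intervals overlap.

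**Figure D1:**
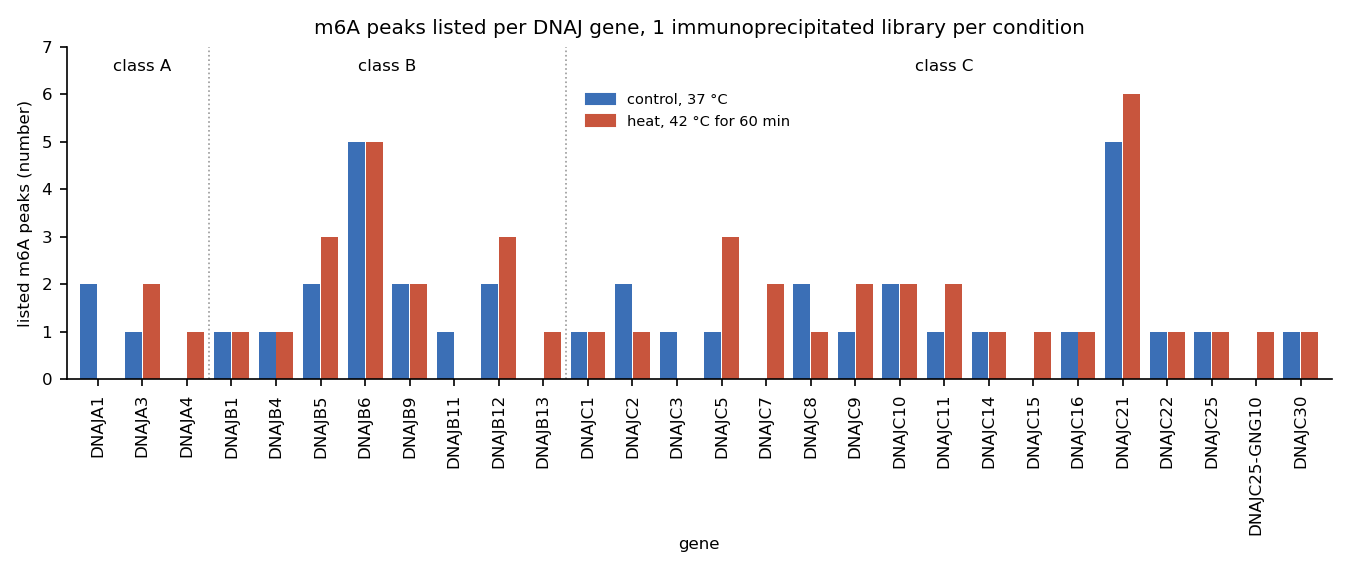
Number of listed m6A peaks (vertical axis) for each of the 28 DNAJ genes (horizontal axis, classes A, B and C divided by dotted lines), with control in blue and heat in red and 1 library behind each bar. DNAJB6 with 5 peaks in each list and DNAJC21 with 5 and 6 stand above the other members, which have at most 3, and 8 genes have a bar in 1 condition only.

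Class A members had few peaks, 3 in each list. DNAJA3, the mitochondrial member also known as TID1, had 1 region with the same boundaries in both lists (chromosome 16, 4505547 to 4506758, hg19). The authors' fold enrichment over background, a value per peak that serves here for description within a list, was 128 there in control and 116 in heat. These folds were higher than those of 87.3% of control peaks and 94.8% of heat peaks. The heat list had another DNAJA3 peak of 116 bases and 37.0-fold, 6697 bases away on the 5′ side.

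DNAJA1, a farnesylated cytosolic partner of Hsp70, was listed in control only. Its control peaks lay on chromosome 9 at 33026811 to 33026988 (22.8-fold, significance score 187) and at 33038683 to 33039220 (61.5-fold, score 576), the score being minus 10 times the log10 of the peak caller's p-value. No heat peak of any gene overlapped either region. DNAJA4, another cytosolic class A protein, showed the opposite listing, with 1 heat peak at chromosome 15, 78557823 to 78558255 (27.8-fold, score 338). The promoter windows printed above show 2-unit heat shock elements in both genes.

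Among class B genes of the cytosol and nucleus, all 4 with a peak in each list had an overlapping region. Of all genes in both lists, only 4.76% had none. DNAJB1, the main heat-inducible Hsp40 of the cytosol, had 1 peak with identical boundaries in the lists (chromosome 19, 14625576 to 14626982). Its fold was 65.2 in control, where the score was 3100, a value that many control peaks share, and 25.9 in heat, where the score was 598. DNAJB4 likewise had 1 identical region (chromosome 1, 78478735 to 78479303), at 104-fold in control and 21.2-fold in heat. For both genes the fold lay in the upper part of the control list, above 68.4% and 82.8% of its peaks, and below the median of the heat list, at the percentiles 37.1 and 24.8.

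DNAJB6, which holds back aggregation of polyglutamine proteins, had 5 peaks in each list, and all 5 overlapped. From 5′ to 3′ their control folds were 296, 138, 23.6, 32.0 and 56.5. In heat the same positions had folds of 35.0, 14.9, 17.3, 22.8 and 72.5. The order of folds along the gene thus differed between the lists. The 5′-most peak (chromosome 7, 157129056 to 157129467) had the highest fold in control, and the 3′-most peak (157208710 to 157210133) had the highest in heat. These peaks are annotated to different transcripts, ENST00000441561 and NM_058246, so that no order along a single transcript is given.

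DNAJB5, a close relative of DNAJB1, had 2 overlapping peaks in each list and a further heat peak that was its strongest. The shared regions had folds of 37.4 and 27.3 in control and 41.4 and 50.2 in heat, with scores of 76.9 and 68.7 and of 108 and 120. The further heat peak lay 3581 bases beyond the last control peak on the 3′ side, at chromosome 9, 34997023 to 34998415, with a length of 1393 bases, 105-fold enrichment and a score of 920.0. In the control list 1 peak number was left free between the flanking listed peaks, so that an unlisted control peak could lie there. DNAJB5 was 1 of 4 shared members whose highest-scored heat peak overlapped no control peak, beside DNAJC8, DNAJC9 and DNAJC11 (4 of 20), against 10.1% of all genes in both lists. The highest-scored control peak overlapped no heat peak in 1 of the 20, DNAJC8, against 8.66% of all.

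The remaining class B genes act in the endoplasmic reticulum, apart from DNAJB13, a protein of the sperm flagellum. DNAJB9, an ER protein induced by unfolded protein stress, had 2 shared regions, at 23.8-fold and 38.0-fold in control and 17.4-fold and 54.6-fold in heat. DNAJB12, an ER membrane protein that works in protein degradation, shared a region of 3102 bases (chromosome 10, 74092588 to 74095689) at 71.0-fold in control and 53.4-fold in heat. On its 5′ side lay 1 control peak (23.5-fold) and 2 heat peaks (28.2-fold and 12.2-fold) that did not overlap each other. DNAJB11, a soluble co-chaperone of the ER Hsp70 BiP, had 1 control peak at chromosome 3, 186302219 to 186302378 (34.8-fold, score 249) and no heat peak. DNAJB13 had 1 heat peak of 77 bases at chromosome 11, 73680291 to 73680367, with 29.9-fold enrichment and a score of 73.4, near the lowest listed score of 50.

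The class C genes of the ER come next. DNAJC14, an ER membrane protein that aids receptor export, had the highest fold of the family, at a region with identical boundaries (chromosome 12, 56221036 to 56222498). Its fold was 716 in control, above 99.7% of that list, and 51.5 in heat, above 75.4% of that list. DNAJC1, an ER membrane protein that recruits BiP to ribosomes, had 133-fold in control and 38.5-fold in heat over 1 identical region (chromosome 10, 22048099 to 22048547). DNAJC16 had 1 region (chromosome 1, from 15894273) that ended at 15895568 in control and at 15895573 in heat, with 164-fold in control and 60.6-fold in heat.

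DNAJC10, the ER disulfide reductase ERdj5, was among the members whose deposited fold was not lower in heat. Its 2 identical regions on chromosome 2 had folds of 19.6 and 45.4 in control and 49.3 and 45.8 in heat. DNAJC25 had 1 identical region (chromosome 9, 114411733 to 114412203), at 26.4-fold in control and 48.2-fold in heat. DNAJC3, the luminal co-chaperone P58IPK, was listed in control only, with 1 peak at chromosome 13, 96443127 to 96444080 (61.4-fold, score 288). Of the 11 ER proteins in the list chosen for this family, 9 had a peak, 7 of them in both lists (77.8%, beside 73.4% of all genes) and 2, DNAJB11 and DNAJC3, in control only. The files give the pathway label of protein processing in the endoplasmic reticulum to 8 members. Of these 5 were shared (62.5%), 3 control only (DNAJA1, DNAJB11 and DNAJC3) and 0 heat only. Of all 99 genes with that label, these 8 among them, 73 were shared (73.7%), 10 were control only and 16 heat only. The 8 members are few, and a difference from the other labelled genes was not tested.

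DNAJC25-GNG10 is a readthrough of DNAJC25 into its neighbour GNG10. Its 1 peak, at chromosome 9, 114393632 to 114394023, was in the heat list (32.6-fold, score 74.3). The symbols overlap and share the promoter window printed above, so that reads could be assigned to either, and the heat-only listing of the readthrough is uncertain. DNAJC25 itself was listed in both conditions.

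The 4 mitochondrial members with a peak follow. DNAJC30, a matrix protein tied to complex I, had 1 region on chromosome 7 that was shorter in heat (1525 bases in control and 1286 in heat), at 36.4-fold in control and 37.5-fold in heat. DNAJC11, which takes part in cristae organisation, shared 1 region at 49.9-fold in control and 55.5-fold in heat. A further DNAJC11 peak was in heat only, 61671 bases away on the 3′ side (39.8-fold, score 285). DNAJC15, a protein of the inner membrane, had 1 heat peak at chromosome 13, 43681314 to 43681627 (30.7-fold, score 94.6). Of the 7 mitochondrial genes in the list, 4 had a peak: 3 shared (75%, beside 73.4% of all genes) and DNAJC15 in heat only. Between them they had 3 control and 6 heat peaks, beside 14367 and 15472 over all genes. Of the 6 heat peaks, 3 overlapped no control peak, and these had a median length of 156 bases.

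All 4 listed members of the nucleus, ribosome and translation group were shared by symbol, beside 73.4% of all genes. In each list 7 of their 10 peaks overlapped the other list, beside 71.7% of all control peaks and 66.7% of all heat peaks. DNAJC21, a factor of large ribosomal subunit maturation, had 5 control and 6 heat peaks on chromosome 5, and all 5 control peaks overlapped a heat peak. From 5′ to 3′ the folds of these 5 regions were 17.9, 11.1, 20.7, 17.1 and 22.9 in control. In heat they were 55.2, 39.0, 14.6, 34.3 and 22.1. The first 2 regions scored 149 and 161 in control and 1178 and 1034 in heat. Their folds lay at the percentiles 7.35 and 0.887 of the control list and at 78.2 and 62.7 of the heat list, and in heat, unlike in control, they had the 2 highest folds and scores of the gene.

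DNAJC8, a protein of the spliceosome, was shared in name only. Its control peaks lay on chromosome 1 at 28530258 to 28530333 (11.2-fold) and 28541451 to 28541507 (56.1-fold), and its heat peak lay at 28559432 to 28559542 (16.2-fold), 17924 bases from the nearest of them. DNAJC8 was the 1 member of 20 without any overlap between its lists, a pattern found in 4.76% of all genes in both lists. DNAJC9, a histone chaperone, shared a region of 696 bases at 32.9-fold in control and 18.8-fold in heat. A further heat peak of DNAJC9, 692 bases long and 19.4-fold, lay 3490 bases to the 5′ side. DNAJC2, a ribosome-bound co-chaperone, shared 1 region of 66 bases (51.6-fold in control and 20.9-fold in heat) and had a further control peak 18100 bases to the 5′ side (29.4-fold, score 51.7).

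The last class C genes fall outside these groups. DNAJC5, the cysteine string protein of synaptic and secretory vesicles, shared a region of 4567 bases (chromosome 20, 62562818 to 62567384), the longest of the family, at 97.5-fold in control and 51.6-fold in heat. It had 2 further heat peaks to the 5′ side, 118 and 214 bases long, at 14.0-fold and 25.9-fold. DNAJC22, an integral membrane protein, shared 1 region of 1039 bases in control and 1155 in heat, at 53.4-fold and 37.0-fold. DNAJC7, a TPR protein that binds Hsp70 and Hsp90, was listed in heat only, with peaks on chromosome 17 at 40135581 to 40135654 (18.3-fold, score 253) and at 40140750 to 40140914 (138-fold, score 884). The latter had the highest fold of all DNAJ heat peaks and lay above 96.5% of the heat list.

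**Figure D2:**
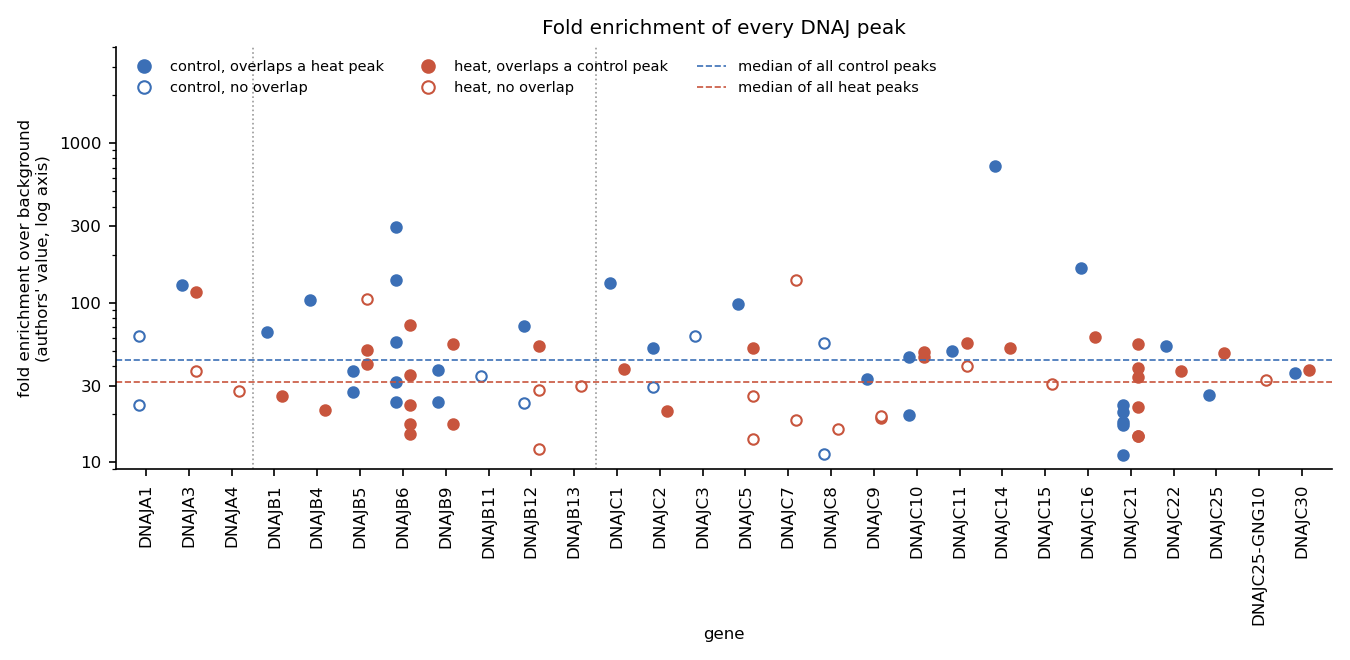
Fold enrichment of each DNAJ peak over background (vertical log axis, the authors' value) by gene (horizontal axis), with control in blue and heat in red, filled where the peak overlaps a peak of the other list and open where it does not. The dashed lines are the medians of all peaks of each list, 43.3 in control and 31.6 in heat, and the open symbols lie below 62, except those of DNAJB5 at 105 and DNAJC7 at 138.

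Between the lists, 30 of the 38 DNAJ control peaks overlapped a heat peak by at least 1 base (78.9%, exact interval 62.7 to 90.4%), beside 71.7% of all control peaks. In the other direction 30 of the 46 heat peaks did (65.2%, 49.8 to 78.6%), beside 66.7% of all heat peaks. The intervals treat peaks as independent, and since peaks of 1 gene can share a transcript they are likely too narrow. In 21 of the 30 pairs the start and the end were identical. Over all genes 6780 regions had identical boundaries, beside 10305 control peaks that overlapped a heat peak. The 8 single-list control peaks had a median length of 178 bases against 493 for the shared ones, and the 16 single-list heat peaks 160.5 against 499.5. Their median folds were 32.1 against 41.7 in control and 28 against 38.7 in heat. Over all genes single-list peaks were shorter and weaker as well, with medians of 334.5 against 645 bases and 34.7-fold against 50.1-fold in control, and 206 against 633 bases and 25.5-fold against 36.7-fold in heat.

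Peaks missing from a list may be unlisted rather than absent, since the lists hold only part of the numbered peaks. Between the listed heat peaks that flank the 8 single-list control peaks, 4 to 14 numbers were free. For the 16 single-list heat peaks, 1 to 19 numbers were free in the control list. Taken 1 at a time, none of the 24 DNAJ peaks therefore lay where the other list left no room for an unlisted peak. The flanking peaks can belong to other genes, as for DNAJA1 (APTX and BAG1). The matching count over all single-list peaks is not given here, so that this is not read as a trait of the family. The room was smallest, 1 free number, for DNAJB5, DNAJB13, DNAJC21 and both heat peaks of DNAJB12. The DNAJB12 peaks lie between the same control peaks, so that they share that number.

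Among the 20 shared members, 7 had more peaks in heat (DNAJA3, DNAJB5, DNAJB12, DNAJC5, DNAJC9, DNAJC11 and DNAJC21), beside 25.0% of all genes in both lists. Fewer peaks were listed in heat for 2 (DNAJC2 and DNAJC8), beside 20.6% of all genes. The number was equal for 11, beside 54.3%. The difference was 2 peaks for DNAJC5 and 1 peak for each of the others. Every additional heat peak of DNAJA3, DNAJB12, DNAJC5 and DNAJC9 lay 5′ of the gene's only shared region, which was also its longest heat peak. Those of DNAJB5 and DNAJC11 lay at the 3′ side and that of DNAJC21 between shared regions. Over all genes with more than 1 heat peak, the longest was the 3′-most in 67.7%, so that shorter peaks on the 5′ side are common.

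**Figure D3:**
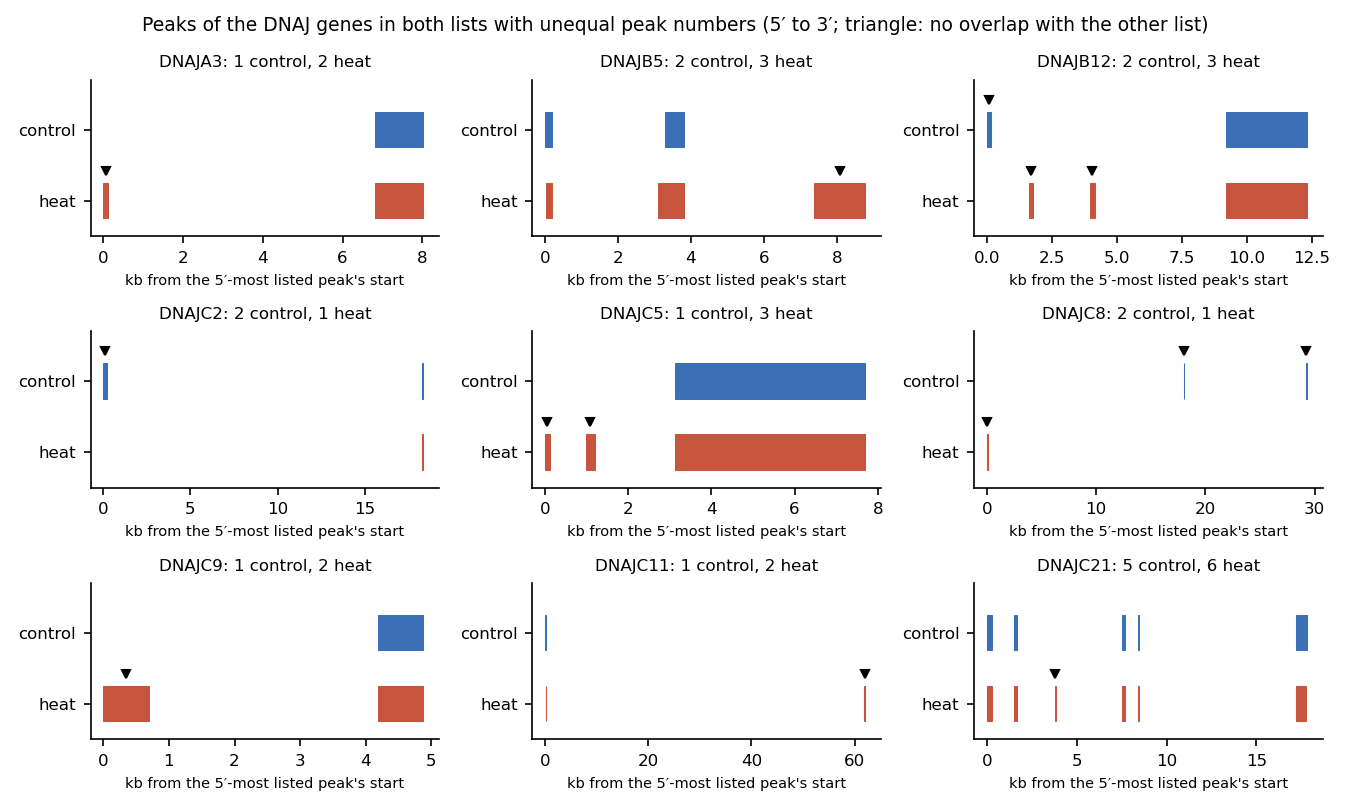
Positions of the peaks of the 9 shared DNAJ genes with unequal peak numbers, in kilobases from the start of the 5′-most listed peak (horizontal axis, each panel to its own scale), with control peaks in the upper row and heat peaks in the lower row. Triangles mark peaks that do not overlap the other list: the 1393-base heat peak of DNAJB5 is the longest of these, and DNAJC8 has no position in common.

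The longest peak of a gene was usually the one nearest the 3′ end, with the strand taken from RefSeq. This held for 8 of the 9 members with more than 1 control peak and a known strand, beside 68.4% of all such genes, and for 10 of 11 in heat, beside 67.7%. The exceptions were DNAJC2 in control and DNAJC7 in heat. The highest-scored peak was the 3′-most in 5 of 9 members in control and in 8 of 11 in heat, beside 57.0% and 54.4% of all such genes. Whether a peak lies in an untranslated region, a coding exon or an intron was not analysed here.

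At the 21 DNAJ regions with identical boundaries, the deposited folds can be set side by side, although the scaling between the libraries is not given and no ratio is read as a change. The fold was larger in the heat list at 7 of the 21, beside 35.6% of all 6780 such regions. The 7 were 3 regions of DNAJC21, 2 of DNAJC10 and 1 each of DNAJB6 and DNAJC25, so that 6 of 12 regions of class C, 1 of 8 of class B and 0 of 1 of class A had the larger fold in heat. The median ratio of heat over control fold was 0.731 for the family and 0.776 over all such regions. A fold at least 3 times larger in control was found at 5 regions (1 each of DNAJB4, DNAJC1 and DNAJC14 and 2 of DNAJB6), beside 15.1% of all. A fold at least 3 times larger in heat was found at 2 regions, both of DNAJC21, beside 4.88% of all.

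**Figure D4:**
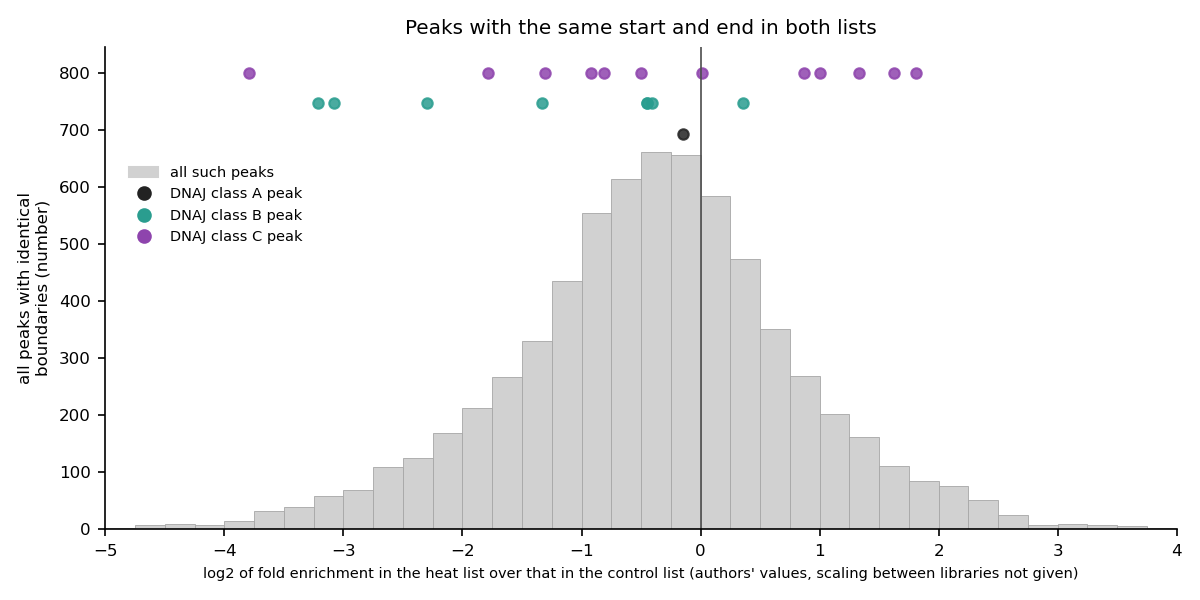
Number of peaks with identical boundaries in both lists (vertical axis) by the log2 ratio of the authors' fold in heat over that in control (horizontal axis); the grey bars count all 6780 and the dots mark the 21 DNAJ regions by class. Dots left of 0 had the larger fold in control: the leftmost is DNAJC14 (716 against 51.5), and the 2 rightmost are DNAJC21.

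The listing of many members depended on which peaks were kept. Besides all listed peaks, 5 selections were made: the 14367 or the 7183 top peaks of each list by score, a fold above 36.5, a score above 228, and a listed false discovery rate under 100%, which left 19 of the 38 control and 21 of the 46 heat peaks of the family. The rate was listed as 100% for 19 DNAJ control peaks, beside 48.5% of all control peaks, and for 25 DNAJ heat peaks, beside 53.2% of all heat peaks. The listing was the same in all 6 for 10 members, and the matching count over all genes is not given here. DNAJA3, DNAJB6, DNAJB12, DNAJC1, DNAJC5, DNAJC14 and DNAJC16 were always shared, DNAJA1 and DNAJC3 always control only, and DNAJC7 always heat only. A single-list member could only keep its listing or lose its peaks, since the selections only remove peaks. DNAJB11 was control only with all peaks, with 14367 top peaks and by score, and had no peak left under the other 3, so that its part in the ER and pathway counts above ends there. DNAJA4 was heat only in 5 and lost its peak above a fold of 36.5. DNAJB13, DNAJC15 and DNAJC25-GNG10 were heat only with all peaks or with 14367 top peaks, and had no peak left under the other 4 selections.

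Several shared members were left in 1 list by the stricter selections. With 7183 top peaks, with a score above 228 and with the false discovery rate limit, DNAJB4 and DNAJC10 had only control peaks left, and DNAJB5 and DNAJC11 only heat peaks. The cut at a fold of 36.5 is the median of both lists pooled, whereas the lists' own medians were 43.3 in control and 31.6 in heat. It kept 8488 control and 6405 heat peaks, and so was stricter for the heat list. Above a fold of 36.5, DNAJB1, DNAJB4, DNAJC2 and DNAJC8 had only control peaks, and DNAJC21, DNAJC25 and DNAJC30 only heat peaks. DNAJC2 had only control peaks already with 14367 top peaks, since its heat peak scored 52.2, near the lowest listed score of 50. That selection gave 12 shared, 6 control-only and 4 heat-only members of 22, beside 55.3%, 31.8% and 12.9% of all genes that passed it. A change from control only to heat only, or the reverse, was not possible, since the 5 selections only remove peaks.

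**Figure D5:**
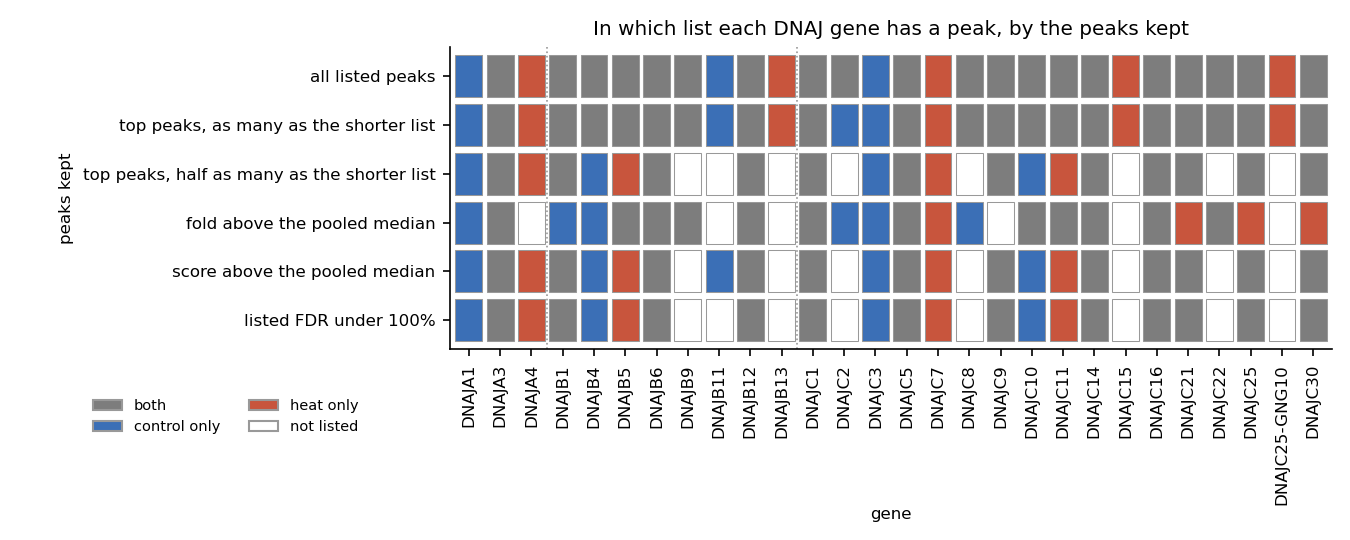
For each DNAJ gene (horizontal axis) and each selection of peaks (vertical axis), the colour shows whether the gene had a peak in both lists (grey), in control only (blue), in heat only (red) or in neither (white). Columns of DNAJA1 and DNAJC3 are blue throughout and that of DNAJC7 is red throughout.

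The Hsp70 partners of the family were read in the same way. Of 10 Hsp70 genes, 6 had a peak: 5 were shared (83.3%) and HSPA6, the strictly inducible Hsp70, was in heat only (49.3-fold). A further list held 14 genes chosen as nucleotide exchange factors, the proteins that release ADP from Hsp70. Whether each gene in it acts so was not tested. Of these, 12 had a peak: 9 appeared in each list (75%) and none was in control alone. HSPH1, BAG2 and BAG6 were in heat only, the last with 4 peaks of up to 22.4-fold. Over all genes 73.4% were shared, 13.5% were control only and 13.2% heat only, and counts this small set neither group apart from them.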

How the data were processed

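The authors' deposited files were 1 list of mRNA peaks per condition. Reads were trimmed with cutadapt 1.9.3, aligned with STAR and placed on hg19, per the submitters' processing notes; peak names begin with MACS per the file headers, while which release called the peaks, and how it was set, is not stated. The deposited significance is a score per peak, the fold enrichment a ratio to the caller's background, and the false discovery rate a percent, per the file headers; peak length is in bases. One line of the heat list was emptied for this work. Starts were made 1-based. Shared peaks overlap by at least 1 base. With 1 library per condition no test was made; intervals are exact binomial (Clopper-Pearson, SciPy 1.17.1) and cover counting only. Percentiles are ranks of a peak within its own list. Promoter windows and strands came from RefSeq (GRCh38.p14), no coordinate of which was joined to hg19. Scripts (Python 3.11.15) were tested on simulated data with planted overlaps and motifs. Members and lists were chosen with earlier results of these data known. All 28 members are named; those in 1 list are given peak by peak. The result of 1 further gene list is not reported here.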

Additional observations from a re-analysis of the deposited data

How the results depend on the processing

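Values are given for the selections of top peaks (7183 per list), fold above 36.5, score above 228 and a listed false discovery rate under 100%. Shared members fell from 20 to 12 under each of these 4. The shared part of all genes fell as well, from 73.4% to between 55.3% and 64.7%. Control-only members numbered 6 by fold and 5 by score, against 3 with all peaks. Over all genes the control-only part also rose, from 13.5% to 31.8% by fold and 22.8% by score. Members with more heat peaks, 7 with all peaks, numbered 4 by fold and 2 under the other 3 selections, and those with fewer numbered 1, against 2, under these 4 and with 14367 top peaks. Overlapping DNAJ peaks fell from 30 to 12 in each list by fold, score and false discovery rate; these selections keep fewer peaks by construction. The number of heat-only members, 4 or 5, and overlap rules moved nothing beyond 1.5 times. Of the 140 single-gene listings under the 5 selections, 91 were as with all peaks, 20 differed, and 29 had no peak left and so no value. None could turn from one condition to the other, since the selections only remove peaks. No paired analysis was possible because each condition had 1 immunoprecipitated library, and none could be left out. Depth per peak is unknown.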
